A study of Homo sapiens with 12 samples.

Results

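Chromatin accessibility was followed across the HOXA, HOXB, HOXC and HOXD gene clusters. The 38 HOX genes listed for this work were located in RefSeq (GRCh38.p14), and a window was drawn from 20 kb below the lowest to 20 kb above the highest gene of each cluster. Peaks of all 12 libraries with a summit in these windows were merged at an overlap of at least 1 bp. This gave 117 regions of 166523 in the genome, with 16 at HOXA, 33 at HOXB, 58 at HOXC and 10 at HOXD. Without the flanks 110 regions remained, and flanks of 50 kb gave 128.

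HOX genes encode homeodomain transcription factors that give cells their position along the body axis. Within a cluster the genes lie in the order in which they act along that axis, from anterior (low numbers) to posterior (high numbers). Clusters that are not in use are known to be packed by Polycomb proteins, and adult epithelia, the breast included, keep parts of the clusters active. The factors bind short TAAT-like sites together with partner proteins of the TALE class, such as the MEIS proteins.

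MDA-MB-453, the cell line used, is a human breast cancer line known to lack estrogen receptor alpha (ER) and to express the androgen receptor. All 12 libraries came from engineered cells with a doxycycline-inducible ER, in 3 forms. These were wild type (WT), Y537S, a ligand-binding domain mutation known for activity without estrogen, and K303R, a mutation of the hinge. Each form was left untreated, or received 1 nM estradiol (E2), 2 ug/mL doxycycline (Dox), or both (Dox+E2), for 2 days. Each combination is 1 library and there were no replicates, so a form cannot be told apart from the engineered cells that carry it. The labels name no clones. The forms rest on the labels, since the peak names write out WT alone.

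ATAC-seq reads accessibility from the sites where a transposase inserts adapters into open chromatin. A region counted as open where a library had at least 1 deposited peak in it, and its strength is the deposited fold enrichment of its strongest peak, (summit pileup + 1) over (background + 1). The libraries held 39522 to 133963 peak summits, and the weakest peaks listed had a pileup of 3 to 5 fragments, so a region without a peak is not shown to be closed. The untreated K303R library stood apart: over regions open in every library its median summit pileup was 24.9 times the background, where the other 11 reached 47.1 to 102 times. The 4 Y537S lists were the longest, at 106291 peaks or more. The date-like tag in the peak names was the same in all 4 Y537S libraries and in no other. All 4 K303R libraries and WT untreated and E2 shared another tag, and WT with Dox and Dox+E2 carried a tag of their own. The peak names of the Y537S libraries alone also hold the word trypsin, whose meaning the labels do not give. In every comparison of Y537S with another form, the form cannot be told apart from the tag or from what that word records, and in WT, Dox and the tag cannot be told apart. Of the luminal breast markers with a promoter entry, GATA3, FOXA1 and ERBB2 had a promoter peak in all 12 libraries, SPDEF in 10 and KRT8 in 8. No library had a peak at the promoters of KRT5 and TP63 (basal), PTPRC (leukocyte) or PDGFRB (fibroblast).

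The promoters on which the gene-level results turn are printed first. Of the 38 genes, 20 had an entry in the RefSeq promoter table (GRCh38.p14, 250 bases before to 50 after a start), with 27 entries at 26 distinct starts. The 7 genes with a promoter peak in at least 1 library are shown, with the HOXC4 and HOXC5 entry printed once because their start is the same. HOXA3 has 7 starts, and only the printed start had a peak in any library. The inner HOXA10 start is added because the HOXA10 region described below lies upstream of it. CG dinucleotides are in capitals, and all sequences run 5′ to 3′ on the strand of the gene.
HOXA3 (chr7:27150901-27151200, minus strand, peak in 3 libraries): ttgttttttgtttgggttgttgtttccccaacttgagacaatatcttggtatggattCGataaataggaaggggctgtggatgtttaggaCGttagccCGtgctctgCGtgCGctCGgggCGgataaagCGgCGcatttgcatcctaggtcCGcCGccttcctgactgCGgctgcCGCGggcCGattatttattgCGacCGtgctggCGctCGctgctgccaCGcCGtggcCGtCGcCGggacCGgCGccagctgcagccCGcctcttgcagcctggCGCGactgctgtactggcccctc
HOXA10 outer start (chr7:27179812-27180111, minus strand, peak in 5 libraries): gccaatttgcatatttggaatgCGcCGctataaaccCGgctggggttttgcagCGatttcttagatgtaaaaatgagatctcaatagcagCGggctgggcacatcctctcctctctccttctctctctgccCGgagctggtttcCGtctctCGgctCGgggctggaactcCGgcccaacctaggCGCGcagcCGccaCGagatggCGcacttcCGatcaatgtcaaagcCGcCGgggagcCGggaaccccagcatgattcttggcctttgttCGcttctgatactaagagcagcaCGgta
HOXA10 inner start (chr7:27174271-27174570, minus strand, peak in 0 libraries): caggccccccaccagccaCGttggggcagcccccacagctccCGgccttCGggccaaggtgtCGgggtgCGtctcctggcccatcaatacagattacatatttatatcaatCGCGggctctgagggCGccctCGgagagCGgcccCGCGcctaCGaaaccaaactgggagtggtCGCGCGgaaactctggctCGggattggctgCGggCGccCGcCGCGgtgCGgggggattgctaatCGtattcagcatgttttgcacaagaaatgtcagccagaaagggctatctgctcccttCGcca
HOXA13 (chr7:27200042-27200341, minus strand, peak in 6 libraries): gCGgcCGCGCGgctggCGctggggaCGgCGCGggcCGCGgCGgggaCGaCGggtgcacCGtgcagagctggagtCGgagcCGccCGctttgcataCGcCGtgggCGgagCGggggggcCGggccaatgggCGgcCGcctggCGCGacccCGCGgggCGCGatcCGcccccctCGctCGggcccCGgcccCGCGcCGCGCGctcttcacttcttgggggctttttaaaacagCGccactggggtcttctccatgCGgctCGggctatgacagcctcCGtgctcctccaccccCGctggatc
HOXC4 and HOXC5 (chr12:54016638-54016937, plus strand, peak in 5 libraries): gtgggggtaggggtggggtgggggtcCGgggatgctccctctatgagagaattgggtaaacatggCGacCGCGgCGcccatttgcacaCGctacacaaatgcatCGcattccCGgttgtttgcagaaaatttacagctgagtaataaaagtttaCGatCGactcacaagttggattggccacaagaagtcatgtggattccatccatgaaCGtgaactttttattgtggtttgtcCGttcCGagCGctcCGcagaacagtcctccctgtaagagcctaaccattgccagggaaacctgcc
HOXD8 (chr2:176129455-176129754, plus strand, peak in 4 libraries): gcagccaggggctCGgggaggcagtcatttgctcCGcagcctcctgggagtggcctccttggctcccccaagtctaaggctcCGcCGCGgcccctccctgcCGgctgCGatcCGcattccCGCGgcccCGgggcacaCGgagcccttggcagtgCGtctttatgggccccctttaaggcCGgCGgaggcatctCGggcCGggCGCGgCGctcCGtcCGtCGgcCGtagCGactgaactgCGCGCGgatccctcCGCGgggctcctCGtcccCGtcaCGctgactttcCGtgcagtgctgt
HOXD1 (chr2:176188418-176188717, plus strand, peak in 5 libraries): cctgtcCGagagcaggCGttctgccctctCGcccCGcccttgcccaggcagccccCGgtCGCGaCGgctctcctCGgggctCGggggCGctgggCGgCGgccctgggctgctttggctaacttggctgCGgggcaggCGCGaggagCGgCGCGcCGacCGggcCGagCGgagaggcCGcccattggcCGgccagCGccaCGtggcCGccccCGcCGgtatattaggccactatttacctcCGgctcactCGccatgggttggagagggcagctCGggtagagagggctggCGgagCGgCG
The HOXA13 promoter held 44 CG dinucleotides in 300 bases and the HOXC4 and HOXC5 promoter 15. Over the 6 distinct starts with a peak the median was 31.5, over the 20 HOX starts without one it was 20.5, and over all 34789 distinct starts of the table it was 14. None of the 6 starts with a peak held GGTCA, the core unit of an estrogen response element, on either strand. GGTCA was present in 37.3% of all promoters and in 11 of the 26 HOX starts. The full palindromic element, GGTCA followed after any 3 bases by TGACC, which contains GGTCA, was found in 0.0575% of all promoters and in 0 of the 26. TAAT, the core of the HOX site, was found on either strand in 20 of 26 HOX starts and in 50.3% of all, and CCAAT in 17 of 26 and in 34.6%. A match is a description of these letters and not a bound site.

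The HOX promoters with an entry were seldom under a peak. They belonged to 9 HOXA, 8 HOXD, 2 HOXC genes and 1 HOXB gene, so HOXB and HOXC were little covered. Both HOXC genes, which share their start, had a promoter peak in some library. The genes without any were 6 of HOXA, 6 of HOXD and the 1 of HOXB. Of the 20 genes with an entry, 13 had no promoter peak in any library, a state shared by 49.4% of the 27195 genes of the table. None had one in all 12 libraries, against 27.6% of all genes, and 1 (HOXA13, which patterns the distal limb and genital tract) had one in 6 libraries or more, against 44.0%. In WT 0, 4, 1 and 0 of them had a peak (untreated, E2, Dox, Dox+E2), beside 35.5%, 42.5%, 42.3% and 40.8% of all genes. The Y537S libraries had 7, 7, 5 and 3, beside 46.2%, 46.7%, 46.0% and 46.0%. The K303R libraries had 0, 0, 2 and 4, beside 30.6%, 39.9%, 44.4% and 45.1%. HOXD8 had a promoter peak in the 4 Y537S libraries only, with fold enrichments of 4.6, 11.2, 3.76 and 6.6 at the promoter itself. At HOXD1, an anterior gene, the values in Y537S were 9.97, 15.0, 7.52 and 6.6, and K303R with Dox+E2 added 5.03. When each list was shortened to its 39522 strongest peaks, 1 of the 20 genes kept a promoter peak in any library, beside 44.1% of all genes. At a −log10 q of at least 10, 4 of the 20 had one in Y537S untreated and 4 in Y537S with E2, beside 42.2% and 42.9% of all genes, and none had one in the other 10 libraries.

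All 38 genes could be scored by a peak within 1 kb of either end of the gene, which needs no strand. By this measure 19 of 38 genes had no peak in any library, against 29.8% of 19974 protein-coding genes. A peak in 6 libraries or more was found at 13 (34.2%), against 60.9%, and at none in all 12, against 42.1%. HOXC stood highest, with 7 of 9 genes at 6 libraries or more, and HOXB had 3 of 10, HOXA 2 of 10 and HOXD 1 of 9. In HOXC, the ends of HOXC13 (a hair and nail gene), HOXC11 and HOXC10 carried a peak in 11 libraries, HOXC4, HOXC5 and HOXC6, which share a start, in 10, and HOXC9 in 8. HOXC12 and HOXC8 carried none. In HOXB the genes were HOXB13 with 9 libraries and HOXB2 and HOXB5 with 6, in HOXA they were HOXA11 with 7 and HOXA13 with 6, and in HOXD it was HOXD13 with 8. By position along the axis, 8 of 16 posterior genes (paralogs 9 to 13) reached 6 libraries, 4 of 15 central genes (4 to 8) and 1 of 7 anterior genes (1 to 3). The posterior 8 include HOXC9, HOXC10, HOXC11 and HOXC13, and the central 4 include HOXC4, HOXC5 and HOXC6 with their shared start. Position and cluster are thus not separated in these counts. The number of HOX genes with a peak near an end was 5, 11, 10 and 8 for WT, 16, 17, 15 and 13 for Y537S and 1, 10, 11 and 14 for K303R, in the order untreated, E2, Dox and Dox+E2. Of all protein-coding genes 45.6% (untreated K303R) to 64.7% (Y537S with Dox) had one.

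**Figure D1:**
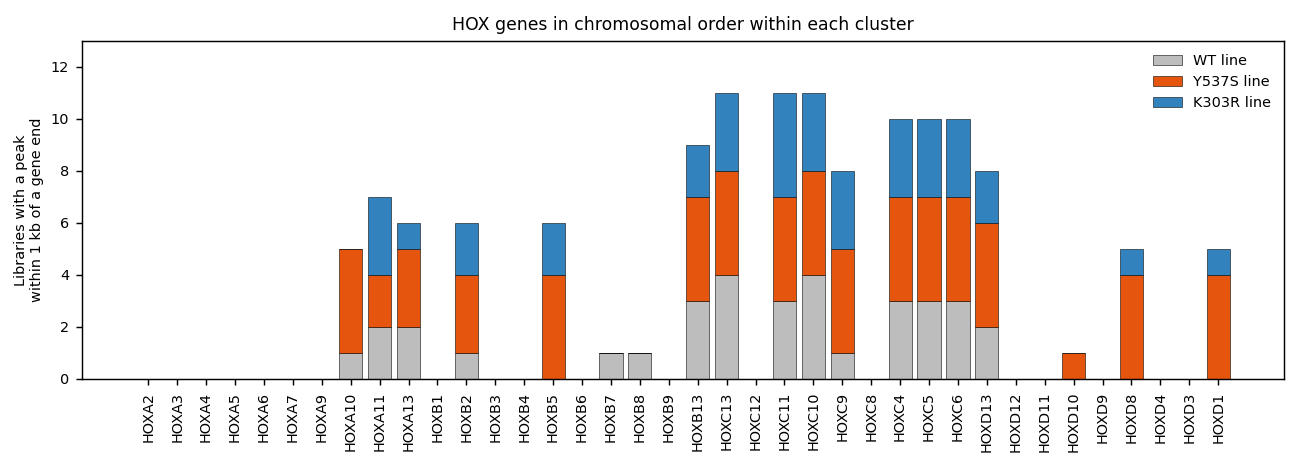
Number of libraries (of 12, stacked by engineered line) with a peak within 1 kb of either end of each HOX gene, in chromosomal order within each cluster. Bars are high from HOXC13 to HOXC4 except at HOXC12 and HOXC8, and 19 genes, 7 of them in HOXA, have no bar.

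Accessibility was spread unevenly over the clusters. The HOXC window (chr12:53918831-54076030) held 3.69 regions per 10 kb, HOXB (chr17:48508526-48748750) 1.37, HOXA (chr7:27080354-27220091) 1.14 and HOXD (chr2:176067487-176210907) 0.697. Regions merged over the 12 libraries filled 17.3% of the HOXC window and 3.66% to 4.72% of the others. In single libraries the peaks covered 0.73% to 10.9% of the HOXC window, with a median of 7.44%. The medians of the others were 0.669% (HOXA), 1.38% (HOXB) and 1.52% (HOXD). Of the 58 HOXC regions, 35 lay between HOXC12 and HOXC9, over the genes HOXC11 and HOXC10, as the map of peaks along the clusters shows. In HOXA no region lay in the 53.3 kb chr7:27080354-27133683, which holds HOXA2 and HOXA4 and the lower part of HOXA3, and the regions gathered around HOXA9, HOXA10, HOXA11 and HOXA13. In HOXD the 36.6 kb from 176141236 to 176177831, around HOXD4 and HOXD3, held none. In HOXB the longest empty stretch was 33.3 kb between HOXB9 and HOXB13, from 48678912 to 48712221. HOX regions were short, with a median of 271 bp against 315 bp over all regions.

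**Figure D2:**
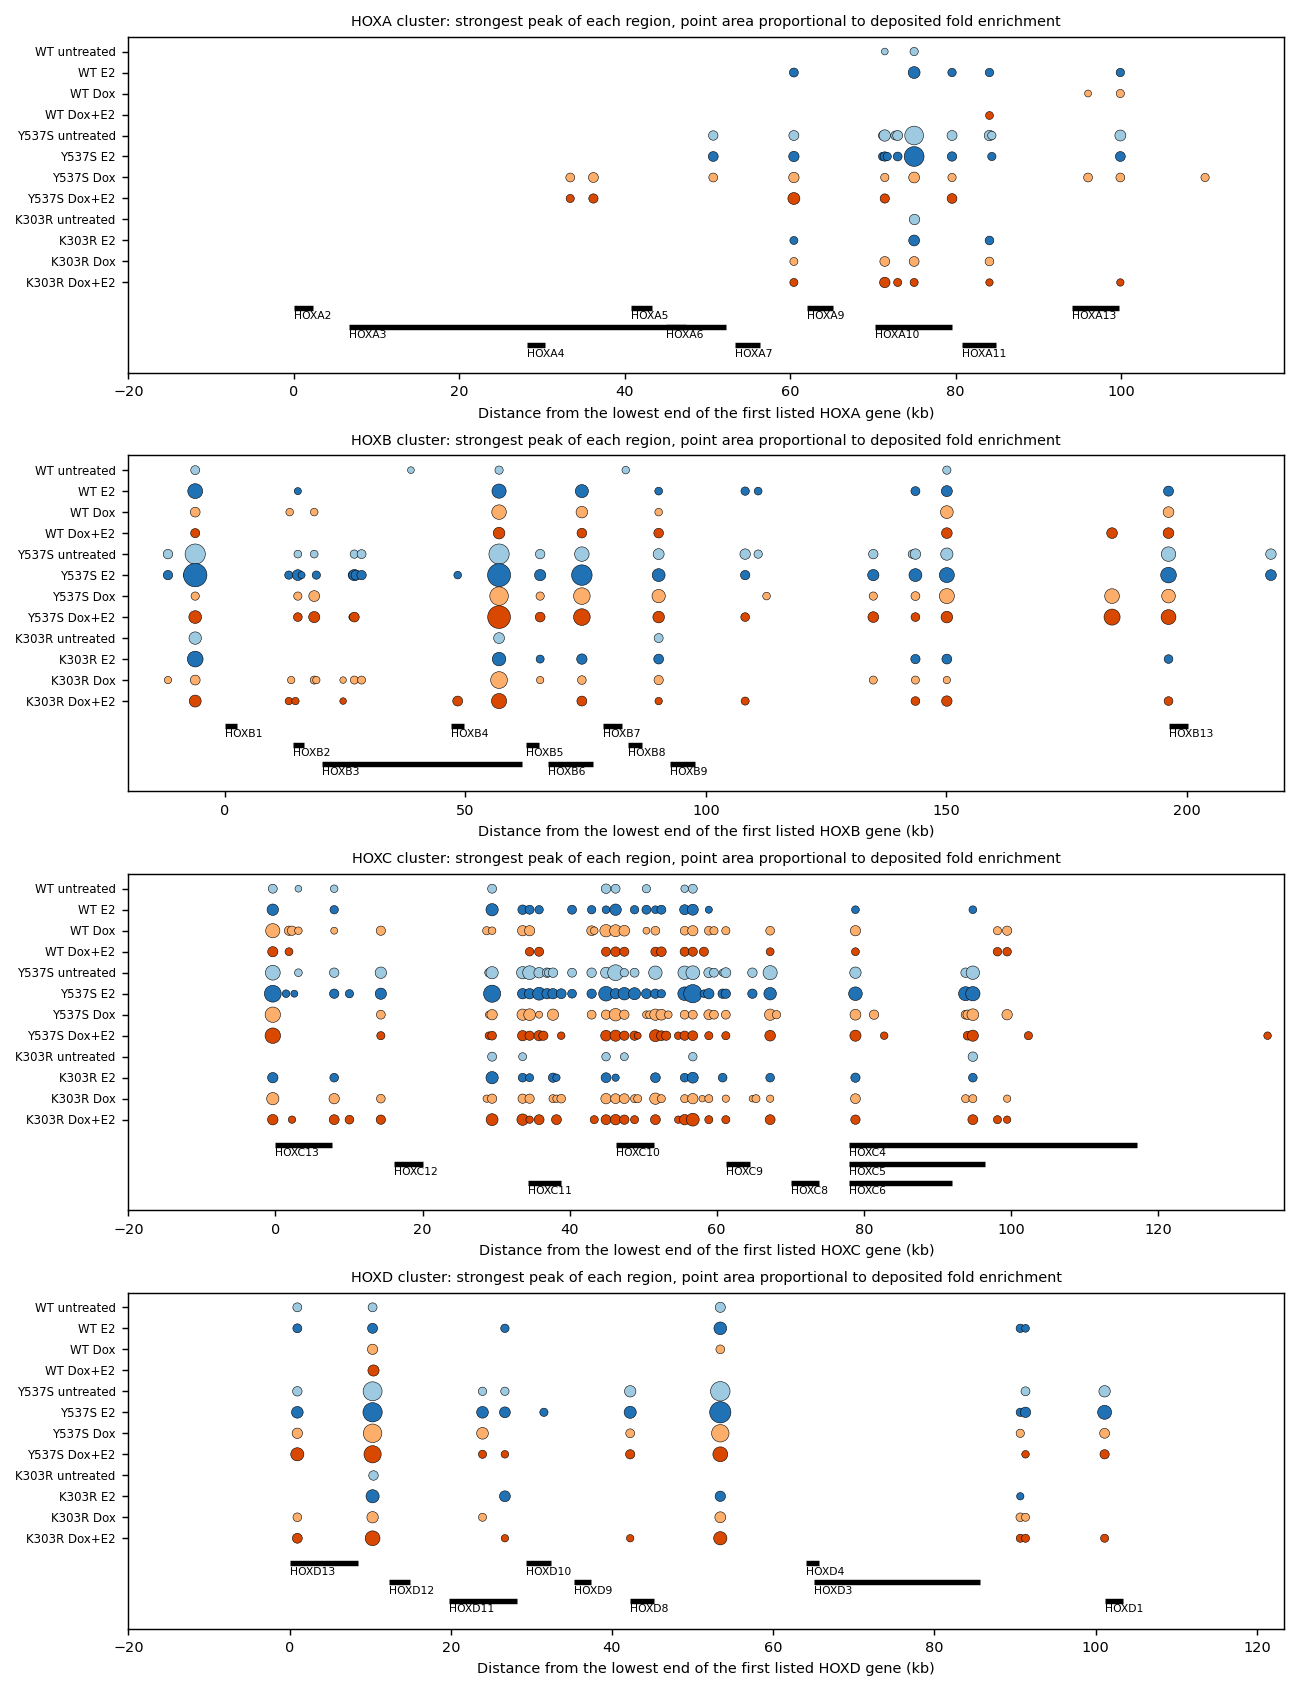
Strongest peak of each HOX region in each of the 12 libraries (rows) against distance in kb from the lowest end of the first listed gene, with point area proportional to deposited fold enrichment and gene spans as black bars. The HOXA peaks lie from just below HOXA9 upward in most libraries, and the HOXC peaks crowd from HOXC11 to HOXC9.

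The microRNA genes of the clusters lay mostly outside the open regions. RefSeq lists 8 hairpins of the clusters with mature sequences, and the 5 mature RNAs that the peaks or shared seeds bear on are shown with the seed (bases 2 to 8) in capitals.
hsa-miR-196a-5p: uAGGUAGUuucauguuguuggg
hsa-miR-196b-5p: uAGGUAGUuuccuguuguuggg
hsa-miR-615-5p: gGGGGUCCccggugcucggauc
hsa-miR-615-3p: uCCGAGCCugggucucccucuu
hsa-miR-3185: aGAAGAAGgcggucggucugcgg
miR-196a, encoded in HOXB and again in HOXC, and miR-196b, encoded in HOXA, share the seed AGGUAGU. The peaks at the MIR615 hairpin (chr12:54033950-54034045) reached over it in 2 libraries, and a peak reached over MIR3185 in 1 library. The MIR196A2 hairpin began or ended 29 bp from the nearest region, and MIR196A1 and MIR196B lay 3964 and 1811 bp away from theirs.

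HOX regions were open in fewer libraries than regions in general at the upper end. Of the 117, 5 (4.27%) were open in all 12 libraries, against 9.99% of all regions. At least 11 libraries had a peak in 11 (9.4%), against 13.8%, and 28 (23.9%) were open in a single library, against 32.0%. In WT, 19, 40, 38 and 25 HOX regions were open (untreated, E2, Dox, Dox+E2), which is 16.2%, 34.2%, 32.5% and 21.4%, beside 20.9%, 30.9%, 32.6% and 25.7% of all regions. In Y537S the counts were 67, 76, 60 and 57, or 57.3%, 65.0%, 51.3% and 48.7%, beside 40.9%, 45.7%, 55.1% and 55.7%. In K303R they were 11, 31, 54 and 52, or 9.4%, 26.5%, 46.2% and 44.4%, beside 17.0%, 25.1%, 40.9% and 43.8%. In Y537S the HOX share was above the general share in both libraries without Dox and below it in both with Dox, and the general share rose where the HOX share fell. The list lengths differ between libraries, and at 39522 peaks per library the HOX counts were 16, 11, 15 and 17 for WT, 15, 17, 10 and 9 for Y537S and 11, 16, 11 and 12 for K303R. Of all regions 15.0% to 17.5% were open at that length, and of the HOX regions 7.69% to 14.5%. At that length HOXC held 8 and 8 open regions in Y537S without Dox and 2 and 1 with Dox. In WT the HOXC counts were 8 and 5 without Dox and 9 and 10 with Dox, and in K303R 6 and 7 without and 8 and 6 with Dox. At that length HOXC was thus lower in both Dox libraries in Y537S alone. With all deposited peaks the Y537S counts in HOXC were 30 and 34 without Dox and 30 and 29 with Dox. The other clusters at equal length, in Y537S without and then with Dox, had 4, 5, 6 and 5 (HOXB), 2, 3, 2 and 3 (HOXD) and 1, 1, 0 and 0 (HOXA). The HOXC difference was picked out after the values were seen. These are single libraries, so no test stands behind it.

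**Figure D3:**
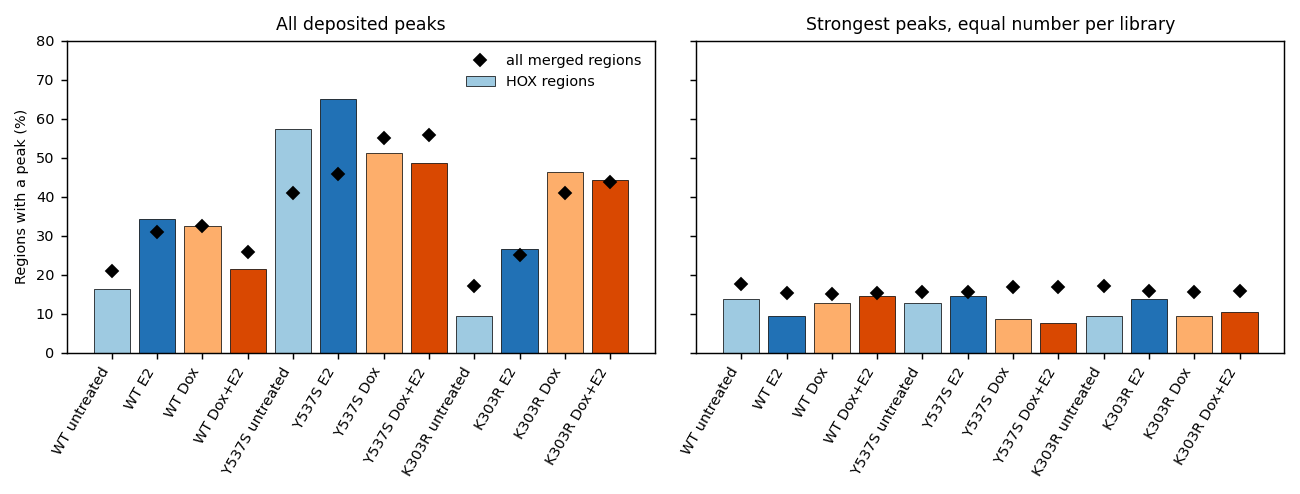
Percent of the 117 HOX regions with a peak in each library (bars, coloured by treatment) beside the percent of all merged regions (diamonds), for all deposited peaks on the left and for the 39522 strongest peaks of each library on the right. In Y537S the bars stand above the diamonds without Dox and below them with Dox, whereas at equal length all 12 bars lie below their diamonds.

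Between the lines, 1 HOX region was open in the 4 Y537S libraries and no other (0.855%, against 0.65% of all regions). It lay 5.27 kb from HOXC11 at chr12:53967723-53967944 and was weak, with fold enrichments of 5.37, 5.24, 3.76 and 4.4. It was a short stretch between regions that the other lines also had. One was chr12:53967412-53967689, open in WT with Dox (5.14) and K303R with Dox (4.13). The other was chr12:53968071-53968821, open in 11 libraries and described below. For WT and K303R the count was 0, beside 0.0% and 0.003% of all regions. At a −log10 q of at least 5, 4 regions met the rule in Y537S, beside 1.05% of all regions, at the ends of HOXB5, HOXD8 and HOXD1 and 37.0 kb from HOXB9. At a −log10 q of at least 10 the count was 4 (beside 1.12%), at equal list length 0 (0.0222%) and at 50% coverage 3 (1.06%).

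The 5 regions open in all 12 libraries allowed tests, since each has a value everywhere. They lay at the HOXB1 side of HOXB (chr17:48522045-48522729, 6.1 kb from HOXB1), inside the span of HOXB3 (chr17:48585030-48586121), between HOXC11 and HOXC10 (chr12:53983296-53984365, 1.36 kb from HOXC10), between HOXC10 and HOXC9 (chr12:53995180-53996644) and between HOXD13 and HOXD12 (chr2:176097245-176098145). None lay in HOXA. Fold enrichments were put on a log2 scale, quantile-normalized over the 16630 regions open in all libraries, and fitted with limma for ER form, Dox and E2. That fit leaves 7 residual degrees of freedom and treats the libraries as replicates of an effect added over the forms. The labels do not say whether the cultures were independent, so p-values measure only how these libraries vary, which may be technical.

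With Dox, 1 of the 5 changed. The HOXB1-side region had fold enrichments of 6.13, 17.0, 7.35 and 6.39 in WT (untreated, E2, Dox, Dox+E2). In Y537S they were 31.4, 41.9, 5.27 and 12.5, and in K303R 11.8, 19, 7.44 and 10.9. Within Y537S and K303R both libraries with Dox lay below both without, and in WT the untreated library, at 6.13, lay with the Dox libraries. After normalization the value was lower with Dox in all 6 pairs matched for form and E2. The log2 differences without and with E2 were -0.36 and -0.96 for WT, -1.81 and -1.10 for Y537S and -1.54 and -1.12 for K303R. The fitted Dox change was a log2 of -1.15 (SE 0.182, adjusted p = 0.000387, limma, Benjamini-Hochberg over 16630 regions). Of all regions 7.67% were called lower with Dox and 4.13% higher, 11.8% in either direction. HOXB1 acts in the hindbrain, and neither its ends nor its promoter carried a peak in any library. ATAC-seq on a culture cannot tell fewer cells with an open site from a site that is less open in each cell. Without the WT libraries, where Dox and the tag go together, the change was -1.39 (adjusted p = 0.00467), and in the 11 libraries other than untreated K303R, over the 19435 regions open in all of them, it was -1.12 (adjusted p = 0.000953).

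Taken form by form, in a fit with a Dox term for each form and 5 residual degrees of freedom, the HOXB1-side region changed by -1.45 in Y537S (SE 0.288, adjusted p = 0.00358, limma), where 8.23% of all regions were called. That call rests on single libraries: the adjusted p was 0.0696 without Y537S untreated, 0.0556 without Y537S E2 and 0.153 without Y537S Dox. In K303R the change was -1.33 (adjusted p = 0.094, beside 0.0241% of all regions called) and in WT -0.66 (adjusted p = 0.192, beside 5.27%). The differences between forms did not pass the test, at -0.79 for Y537S minus WT (SE 0.407, adjusted p = 0.628), -0.67 for K303R minus WT (SE 0.407, adjusted p = 0.597) and 0.12 for K303R minus Y537S (SE 0.407, adjusted p = 0.94). The limma share called for these differences was 0.00601%, 0.00601% and 0.15%.

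The other always-open regions gave no call with Dox. The HOXB3 region lay inside the RefSeq span of that gene, but between HOXB4 and HOXB5. Its fold enrichments were 5.25, 15.4, 16.2 and 10.4 for WT, 31.4, 40.4, 26.3 and 39.6 for Y537S and 9.02, 14.0, 21.5 and 17.6 for K303R. It was the HOX region with the highest median, 16.9, and its fitted Dox change was 0.31 (SE 0.18, adjusted p = 0.284). Between HOXD13 and HOXD12, both posterior genes, the values were 6.13, 7.72, 8.08 and 9.58 for WT, 27.6, 28.4, 26.3 and 22.7 for Y537S and 6.94, 13.2, 9.92 and 16.8 for K303R. The Y537S libraries were all above the other 8 on this raw scale. The same order held for the median fold over all regions open in every library, at 18.3 to 26.2 in Y537S and 7.88 to 15.4 in the others. After normalization K303R with Dox+E2 (4.02 on the log2 scale) lay above Y537S with E2 (3.98). The Dox change of this region was 0.14 (SE 0.179, adjusted p = 0.678). Beside HOXC10, on its HOXC11 side, they were 7.0, 4.63, 11.8 and 6.39 for WT, 9.2, 16.5, 6.77 and 8.8 for Y537S and 5.55, 7.43, 8.27 and 7.55 for K303R, with a Dox change of 0.15 (SE 0.219, adjusted p = 0.718). Between HOXC10 and HOXC9 they were 6.13, 9.26, 8.08 and 6.39, then 14.6, 25.4, 6.02 and 7.33, then 5.55, 9.08, 8.27 and 12.6, with a Dox change of -0.24 (SE 0.185, adjusted p = 0.443). In Y537S both Dox libraries of this HOXC region were below both others, with a change of -0.75 (SE 0.289, adjusted p = 0.131).

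**Figure D4:**
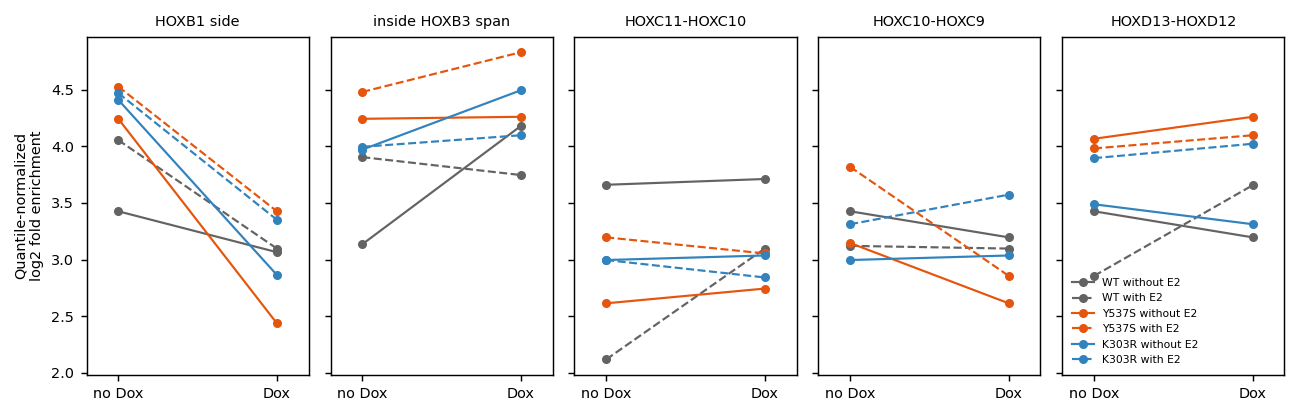
Quantile-normalized log2 fold enrichment of the 5 HOX regions open in all 12 libraries, each line joining the libraries without and with Dox of 1 ER form, without E2 (solid) or with E2 (dashed). Every line falls in the HOXB1-side panel, and lines go both ways in the other panels.

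E2 moved none of the 5 past the threshold. For the HOXB1-side region the E2 change was 0.41 (SE 0.182, adjusted p = 0.999), and the same fit called 0 of 16630 regions, with 624 at an unadjusted p under 0.05 (limma). Between the forms, none of the 5 was called either. The values nearest the threshold were Y537S minus WT at the HOXD13 to HOXD12 region, 0.82 (SE 0.219, adjusted p = 0.0641), and at the HOXB3 region, 0.71 (SE 0.22, adjusted p = 0.099), in a contrast that called 1.3% of all regions. When libraries were centred on their medians in place of quantile normalization, the HOXD value was 0.84 with an adjusted p of 0.0341. K303R minus WT called 0.012% of all regions and K303R minus Y537S 6.28%.

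Inside HOXA10, a gene of the uterus and posterior skeleton, a region fell with Dox that was not open everywhere. It lay at chr7:27175176-27175600, upstream of the inner HOXA10 start whose sequence is printed above and 4.52 kb from the nearest end of the gene. Its fold enrichments were 5.25 and 10.8 in WT untreated and E2, with no peak in either Dox library. In Y537S they were 26.8 and 29.9 without Dox (untreated, E2), 9.03 with Dox and no peak with Dox+E2. In K303R they were 8.32, 9.08, 7.44 and 5.03. All 6 libraries without Dox had a peak there, and within each form every library without Dox was above both with Dox. With each list at 39522 peaks it was open in all 6 libraries without Dox and in none of the 6 with Dox, a pattern of 0.0961% of all regions at that length. It was 1 of 22 HOX regions among the 32621 open in at least 9 libraries. Refitted over these, with the missing values of WT Dox, WT Dox+E2 and Y537S Dox+E2 set to the lowest value of the library, its Dox change was -1.2 (SE 0.202, adjusted p = 0.000289, limma). In Y537S alone it was -1.59 (adjusted p = 0.00303, beside 11.8% of all regions called), in WT -1.0 (adjusted p = 0.0696) and in K303R -1.02 (adjusted p = 0.162). The adjusted p of the differences between forms was 0.754 for Y537S minus WT, 0.993 for K303R minus WT and 0.639 for K303R minus Y537S. In that fit the HOXB1-side region gave -1.17 (adjusted p = 0.000332), and 9.09% of all regions were called lower with Dox and 15.4% in either direction.

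Another HOX region passed in the wider fit. It lay 4.83 kb from HOXC11 at chr12:53968071-53968821, where fold enrichments were 6.13, 11.6 and 4.41 for WT (untreated, E2, Dox; no peak with Dox+E2), 11.5, 22.5, 8.28 and 5.87 for Y537S and 6.24, 11.6, 6.61 and 10.9 for K303R. The Dox change was -0.69 (SE 0.195, adjusted p = 0.0166, limma, with WT Dox+E2 set to the lowest value). In WT and Y537S both Dox values lay below both others, and in K303R they overlapped. Within WT that fit called this region (-1.05, adjusted p = 0.0489) and one 8.23 kb from HOXD8 (chr2:176140217-176141235; -1.14, adjusted p = 0.0319), with 7.14% of all regions called and Dox and tag inseparable. The HOXD values were 7.88, 12.3 and 5.88 in WT (no peak with Dox+E2, set to the lowest value), 29.1, 34.4, 23.3 and 16.9 in Y537S, and 8.25, 9.09 and 13.4 in K303R with E2, Dox and Dox+E2. Between forms it called K303R lower than Y537S inside HOXB6 (chr17:48602345-48603043) by a log2 of -1.10 (SE 0.248, adjusted p = 0.0107) and at an end of HOXB13 (chr17:48724387-48724828) by -1.07 (SE 0.241, adjusted p = 0.0103), in a contrast calling 7.23% of all regions and in which form and tag cannot be told apart. Inside HOXB6 the Y537S values were 16.1, 32.2, 21.1 and 21.3. K303R had no peak untreated and 8.25, 5.79 and 7.55 with E2, Dox and Dox+E2, and WT had no peak untreated and 13.1, 10.3 and 7.18. At HOXB13, a posterior gene best known from prostate, Y537S had 16.1, 18.7, 14.3 and 16.9, K303R 5.78 with E2 and 5.87 with Dox+E2, and WT 7.72, 8.82 and 8.78 with E2, Dox and Dox+E2. The missing K303R and WT values were set to the lowest of their library.

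**Figure D5:**
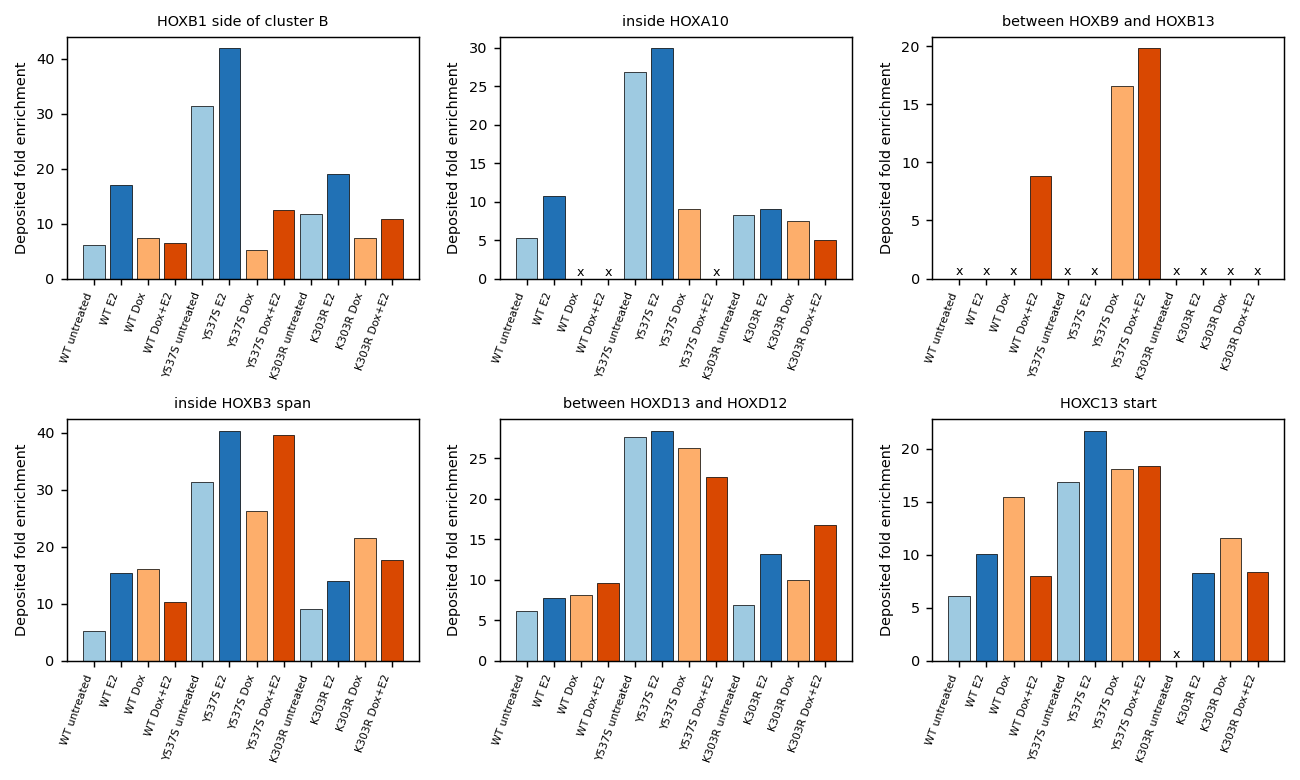
Deposited fold enrichment of the strongest peak at 6 HOX regions in each of the 12 libraries (bars from 0, coloured by treatment; x marks a library without a peak). The HOXA10 and HOXB1-side bars are lower with Dox in Y537S, and the region between HOXB9 and HOXB13 has bars in 3 libraries, all with Dox.

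Regions that appeared or vanished with Dox within a form were counted next. A region counted as gained when open in both Dox libraries of a form and in neither without Dox, and as lost in the reverse case. No HOX region was gained in all 3 forms, beside 1.3% of all regions, and none was lost in all, beside 0.0024%. In WT 5 HOX regions (4.27%) were gained, beside 4.14% of all regions, and 2 (1.71%) lost, beside 2.08%. In Y537S 4 (3.42%) were gained, beside 18.2%, and 11 (9.4%) lost, beside 6.71%. In K303R 9 (7.69%) were gained, beside 8.54%, and 0 lost, beside 0.0799%. The WT and K303R shares were thus near those of all regions, and in Y537S the share gained was smaller, and the share lost larger, than over all regions. These counts describe single libraries and have no test. At 39522 peaks per library the Y537S counts were 1 gained (0.855%), beside 5.09%, and 4 lost (3.42%), beside 3.54%. The larger share lost in Y537S was thus not seen at that length, and the share gained was still smaller. The WT counts were 2 gained (1.71%), beside 1.62%, and 3 lost (2.56%), beside 2.24%.

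In Y537S the strongest gained region lay between HOXB9 and HOXB13, 11.8 kb from HOXB13 (chr17:48712222-48713093). Its fold enrichment was 16.6 with Dox and 19.8 with Dox+E2 in Y537S and 8.78 for WT with Dox+E2, and the other 9 libraries had no peak. Every library with a peak there had received Dox. A weaker gain lay inside the span of HOXA3, between HOXA4 and HOXA5 (chr7:27136453-27136671), at 7.52 and 6.6. Another lay inside the spans of HOXC5 and HOXC4 (chr12:54032839-54033050), at 6.77 and 5.87. Neither had a peak in any other library. The HOXC gain was a short stretch between regions that Y537S already had without Dox. The region chr12:54032554-54032774 had 6.9 untreated and 15.0 with E2, and chr12:54033129-54034240 had 13.8 and 15.7. Among the lost regions the strongest was 17.2 kb beyond HOXB13 (chr17:48745854-48746176), at 8.43 untreated and 8.98 with E2 and open in no other library. Inside HOXC11 (chr12:53975645-53975851) the Y537S values were 6.9 and 8.24, again alone. A region 0.279 kb beyond HOXC13 (chr12:53946494-53947080) was lost in Y537S, from 6.9 and 6.74. There WT had 4.38, 5.4 and 3.67 (untreated, E2, Dox), and K303R 5.78, 8.27 and 7.55 with E2, Dox and Dox+E2.

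All 5 WT gains lay in HOXC, which held 58 of the 117 HOX regions. At a −log10 q of at least 10 the only WT gain lay in HOXB, at an end of HOXB13, and it was also a WT gain at equal list length. The strongest of the 5 was inside HOXC10 (chr12:53985945-53986449), a gene of the lumbar axis, at 8.82 and 6.39 with Dox and Dox+E2. It was open in all 4 Y537S libraries, and in K303R it lacked a peak with E2 alone. Inside HOXC4 the region chr12:54038162-54038468 was gained in WT at 6.61 and 5.59 and also in K303R at 4.13 and 4.19, and Y537S had a peak with Dox at 8.28. It was the one HOX region gained in both WT and K303R. Its K303R peaks had pileups of 4 and 4, where the lowest listed in those libraries was 3. In K303R it was not gained at a −log10 q of at least 5, at equal list length or at 50% coverage. A neighbour inside HOXC4 (chr12:54036902-54037108) was gained in WT at 5.14 and 5.59. The 2 WT losses were the HOXA10 region described above and one inside HOXD13 (chr2:176088342-176088630), which went the other way in K303R. There it was at 6.13 and 6.17 in WT without Dox and absent with Dox, and absent in K303R without Dox and at 5.79 and 7.55 with Dox and Dox+E2. In Y537S all 4 libraries had it, at 6.9, 10.5, 8.28 and 13.2. The difference between the forms was not tested. Both the WT loss and the K303R gain held at a −log10 q of at least 5 and at 50% coverage. Neither held at a −log10 q of at least 10 or at equal list length.

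Other K303R gains were inside HOXA10 near its lower end (chr7:27171692-27171909), at 7.44 and 8.39, and 1.74 kb from HOXC12 (chr12:53952932-53953379), at 5.79 and 6.71. Both were open in all 4 Y537S libraries. The gains fell 5 to HOXC, 2 to HOXD and 1 each to HOXA and HOXB. The untreated K303R library, whose list is the shortest, enters each of these counts. With 39522 peaks in every library, 1 HOX region was gained in K303R, beside 0.975% of all regions, and 2 were lost, beside 0.995%. The gained region was the one at the HOXC10 start described below, which was not a gain with all deposited peaks.

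At the start of HOXC13 the region chr12:53938002-53940004 was open in all libraries but untreated K303R. Its values were 6.13, 10.0, 15.4 and 7.98 for WT, 16.9, 21.7, 18.1 and 18.3 for Y537S, and 8.25, 11.6 and 8.39 for K303R with E2, Dox and Dox+E2. At the HOXC10 start (chr12:53984695-53985851) they were 6.13, 10.0, 11 and 7.18, then 19.2, 8.24, 12 and 9.53, then 4.13, 7.44 and 8.39. Libraries with and without Dox overlapped in WT and in Y537S at the HOXC10 start. In K303R both Dox values there lay above that with E2, and untreated K303R had no peak. At the shared start of HOXC4, HOXC5 and HOXC6 the region chr12:54016623-54018453 was open in 10 libraries, with 9.97, 14.2, 9.03 and 9.53 in Y537S and 4.63 to 8.08 in the others.

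Genes that work with or on the HOX clusters were read from lists. Of 9 TALE-class cofactors, 7 had a promoter entry, and MEIS1 and PKNOX1 had a promoter peak in all 12 libraries, MEIS2 in 10, and PBX2 and PBX3 in 4, while PBX4 and MEIS3 had none. All genes had a promoter peak in all 12 libraries in 27.6% of cases. Of 19 Polycomb, trithorax and related regulators, 15 had an entry, 6 had a promoter peak in all 12 libraries (RNF2, CBX7, KMT2B, MEN1, KDM6A and CTCF) and 12 in at least 10, beside 37.9% of all genes, with PCGF2 alone at none. EZH2 and EED, subunits of the Polycomb methyltransferase, stood at 11. The RNA genes of the clusters were lower: of 6 with an entry, HAGLR had a promoter peak in 8 libraries and HOTTIP and HAGLROS in 6, and HOXA11-AS, HOXB-AS1 and HOXB-AS3 had none. Of the homeobox neighbours and ParaHox genes, 5 had an entry (EVX1, EVX2, CDX2, GSX1 and GSX2) and none of them a promoter peak in any library.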

How the data were processed

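Each of 12 libraries has 1 deposited peak list (hg38; FastQC, Bowtie2, SAMtools, Picard and MACS2, per the submitters' processing notes; versions, settings and any read shift: not given in the sources used here). Each list comes from 1 library alone, per the labels. The deposited values used are the fold enrichment (a ratio) and the −log10 p and −log10 q; the deposited score is a multiple of the −log10 q and was not used. From each fold the summit pileup was recovered to within 0.000715 of a whole number, with backgrounds of 0.143 to 0.442 that stand for depth. Total reads are not used here.

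Peaks were merged at 1 bp of overlap. Log2 folds of regions open in all 12 libraries were quantile-normalized and fitted with limma 3.58.1 in R 4.3.3 (two-sided, Benjamini-Hochberg, threshold 0.05). The fit was tested on simulated data. Presence counts have no test.

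Members and lists were chosen with earlier results of these data known. Regions are named as the 3 strongest open in all libraries per cluster, the 3 strongest gained and lost per form, the 3 strongest open in 1 form alone, and those past the limma threshold. Other regions were chosen after their values were seen. These are the region inside HOXA10, those at HOXB6 and at an end of HOXB13, those 4.83 kb from HOXC11 and 8.23 kb from HOXD8, and the starts of HOXC13, HOXC10, HOXC4, HOXD8 and HOXD1. The alternatives were −log10 q of at least 5 and 10, equal list length (39522 peaks by −log10 p), 50% coverage, flanks of 0 and 50 kb, median centring, pileups, mean folds, regions open in at least 9 libraries, promoters of 1000 bases to each side, and libraries or forms left out. The fit without untreated K303R on its own regions and the 1 kb gene-end measure were chosen after seeing the data.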

Additional observations from a re-analysis of the deposited data

Results flagged for a closer look

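Some values were flagged because the forms moved in opposite directions. Between HOXC10 and HOXC9 (chr12:53995180-53996644) the normalized fold was higher with Dox in both K303R pairs (log2 differences of 0.04 and 0.26) and lower in both WT pairs (-0.23 and -0.02) and both Y537S pairs (-0.53 and -0.96). The difference of the Dox changes was 0.28 for K303R minus WT (SE 0.409, adjusted p = 0.867, limma) and 0.90 for K303R minus Y537S (SE 0.409, unadjusted p = 0.0399, adjusted p = 0.365), so neither passed the test.

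The region inside HOXD13 (chr2:176088342-176088630) had a peak in both K303R libraries with Dox and in neither without, and the reverse in WT. The smallest −log10 q among these peaks was 6.07. The difference was not tested, and the WT libraries with Dox carried another tag than those without. Untreated K303R, with the shortest list, is among the libraries without a peak. At equal list length and at a −log10 q of at least 10, neither the WT loss nor the K303R gain held.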

How the results depend on the processing

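The fall of the HOXB1-side region with Dox held under each of 20 alternatives (log2 of -1.39 to -1.0, adjusted p of 0.0003 to 0.0366). Counts of gained and lost regions were less steady. With 1 library left out the rule has fewer conditions, so a count can then only stay or rise. Gained regions in WT (5) numbered 3 at a −log10 q of at least 5, 1 at 10, 2 at equal list length, 2 at 50% coverage and 5 to 14 with 1 library left out. WT losses (2) were 4, 0 and 2 to 14 (q of 5, q of 10, 1 library left out). In Y537S gains (4) were 2 at a q of 10, 1 at equal length and 5 to 12 with 1 library left out, and losses (11) were 7 at a q of 10, 4 at equal length and 16 to 23. In K303R gains (9) were 5 and 0 at the q thresholds, 1 at equal length and 10 to 25, and losses (0) were 2 at equal length, 1 at 50% coverage and 0 to 1. The regions behind these counts were often others than in the main lists. None of the Y537S losses at equal length was among the 11, and at a q of 10 only the one beyond HOXB13 was. The K303R gain at equal length and the WT gain at a q of 10 were not among the main gains. The Y537S gain between HOXB9 and HOXB13 was kept at both q thresholds, at equal length and at 50% coverage. Regions gained in all forms (0) became 1 without the Y537S line, inside HOXC4, and regions lost in all (0) became 1 at equal length, inside HOXA10. Regions open in Y537S alone (1) numbered 4 and 4 at the q thresholds, 0 at equal length and 3 at 50% coverage, with the shares of all regions given above. Genes with a promoter peak (7) fell to 1 at equal length. With median centring the limma calls were 1 for Y537S minus WT (main 0) and 2 for Dox in Y537S (main 1), and the latter was 0 to 1 with 1 library left out. The Dox change beside HOXC10 turned to -0.087 without WT E2 (-0.087 to 0.291 with 1 library left out) and to -0.032 without the WT line, and that between HOXC10 and HOXC9 to 0.012 without the Y537S line, none of them called. The cause of these shifts was not tested. Sites with summit pileups below the lowest listed, 3 to 5 fragments, were not detectable at this depth. The labels give no replicate numbers to pair by, and the fit matches libraries through its terms for form and E2.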
